A study of Mus musculus with 12 samples.

Results

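Col8a1 and Col8a2, the genes of the collagen VIII chains, were followed by symbol through the count and FPKM tables of mouse corneal endothelium, where they were 2 of 32761 genes. Both were counted in all 12 libraries and both passed the low-count filter, which left 17965 genes for testing. The corneal endothelium is the cell layer at the back of the cornea that pumps fluid out of the stroma. Polyadenylated RNA of this layer was sequenced from mice with Q455K on both copies of Col8a2, a model of early-onset Fuchs endothelial corneal dystrophy, and from wild-type mice, which the headers of the deposited comparison tables call c57. Each of the 4 groups had 3 biological replicates. Early mutants and early wild type were up to 2 months old and formed batch 1, and late mutants and late wild type were at least 8 months old and formed batch 2. No other allele or treatment is named. Stage and batch cannot be told apart, and the number of animals per library is not stated. The study compared the genotypes at each stage.

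Collagen VIII is a short-chain collagen of basement membranes. Its α1 and α2 chains, encoded by Col8a1 and Col8a2, each carry a triple-helical stretch built from glycine-X-Y repeats and a globular domain at the C terminus that starts trimer assembly, and the trimers join into the hexagonal lattice of Descemet membrane, the basement membrane that the corneal endothelium lays down. In human families, missense changes in COL8A2 cause an early-onset form of Fuchs dystrophy, a disease in which this membrane thickens and endothelial cells are lost.

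The chain genes lie on different chromosomes and their reference transcripts share only short runs of bases. In the GENCODE M21 annotation of GRCm38, the Col8a2 transcript ENSMUST00000070132.6 lies on the plus strand of chromosome 4, has 4 exons and 4332 bases, and holds 699 codons beginning in exon 3. The Col8a1 transcript ENSMUST00000089332.4 lies on the minus strand of chromosome 16, also has 4 exons with the first codon in exon 3, and has 5108 bases and 744 codons. The files were made on GRCm39, so no gene coordinates are given. Counted as runs of at least 4 glycine-X-Y triplets, where X and Y stand for the places after glycine, each transcript held 9 blocks of the repeat, with 148 triplets between codons 73 and 532 in Col8a2 and 146 between codons 119 and 572 in Col8a1. After the last triplet, 167 codons followed in Col8a2 and 172 in Col8a1. Over 686 aligned codons 57.6% of bases were identical, and over the 162 aligned codons after the repeat 64.2% were. The longest run of bases shared by the transcripts was 15. The deposited tables count reads per gene, so they do not show which allele a Col8a2 read came from, and the level of Col8a2 is no check of the genotype labels.

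The smallest library, early wild-type replicate 2, had 19722598 counts and the largest, early mutant replicate 1, had 39431676, at which 3 counts are 0.152 and 0.076 CPM (counts scaled to a fixed library total). Both chains were far above that in every library, with 17565 to 79607 reads for Col8a1 and 13763 to 46491 for Col8a2, so counting error is small beside the spread between libraries. Late wild-type replicate 1 stood apart from its group: the mean chi-square per gene was 234.8 and 236.8 against replicates 2 and 3, and 59.1 between those. The chain results that rest on this library are given with and without it. Markers of the labelled tissue were abundant on the CPM scale of library totals: the solute carrier gene Slc4a11 ran from 1638 to 5971, Aqp1 from 1140 to 4214 and Tfap2b from 636 to 1451. Markers of other cells were also present, and the sum of the 16 macrophage markers separated the genotypes. It was 48.3 to 81.4 CPM in early wild type and 277 to 612 in early mutants. In late wild type it was 53.2 to 66.1 and in late mutants 458 to 600. Lyz2 weighed most in this sum, with mutant means of 259 against 25.4 CPM early and 271 against 29.3 late. Of these markers, 13 had a higher mean in early mutants and 16 in late mutants. Itgam (0.578 against 1.54), Ptprc (0.553 against 1.93) and Mrc1 (0.344 against 0.614) had lower means in early mutants.

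Both chains were among the most abundant transcripts of the tissue. Per kilobase of transcript, Col8a1 had 119 to 395 FPKM (mean 238) and Col8a2 156 to 325 (mean 219.6). Among all genes of a library Col8a1 ranked between 230 and 752 and Col8a2 between 267 and 606. They held the first and second places among the collagen chains in 11 of 12 libraries; in late mutant replicate 1 Col8a2 came behind Col8a1 and Col4a3, at 172 FPKM. On this length-corrected scale the order of the chains differed by group: the group mean of Col8a2 was above that of Col8a1 in early wild type (258 ± 90.2 against 217 ± 75.0 FPKM, SD, n = 3) and late wild type (205 ± 77.6 against 178 ± 97.4). In the mutants Col8a1 was above Col8a2, at 284 ± 102 against 199 ± 32.7 FPKM early and 274 ± 21.8 against 215 ± 62.1 late. Early, neither order held in all libraries of a group; late, Col8a2 was above Col8a1 in all 3 wild-type libraries and below it in all 3 mutants.

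Col8a1 encodes the α1 chain, which carries no change in these mice. Its level, in CPM after TMM scaling (a correction for differences in library composition), was 950, 859 and 1374 in the early wild-type replicates 1, 2 and 3 and 2175, 1006 and 1436 in the early mutants. The groups overlapped, since early wild-type replicate 3 lay above early mutant replicate 2. In late wild type it was 1357, 705 and 688 CPM, and in late mutants 1390, 1262 and 1271. Late wild-type replicate 1 lay among the late mutants, and the other late wild-type libraries were well below all of them. The late mutants varied least, with a coefficient of variation of 5.48% against 41.6% in late wild type, 38.4% in early mutants and 25.9% in early wild type.

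Col8a2 encodes the α2 chain, the one that carries the change. It was at 1740, 605 and 1180 CPM in early wild type and at 949, 1055 and 811 in early mutants. The wild-type libraries spanned the mutants on both sides, from the lowest Col8a2 level of all libraries in replicate 2 to the highest in replicate 1. In late wild type it was at 1207, 835 and 771 CPM, and in late mutants at 793, 1062 and 813. These groups overlapped too. A complete separation of the genotypes, which neither chain showed at either stage, was seen in 21.9% of all tested genes early and 25.9% late. The coefficient of variation was 48.3% in early wild type, 13.0% in early mutants, 25.1% in late wild type and 16.9% in late mutants.

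**Figure D1:**
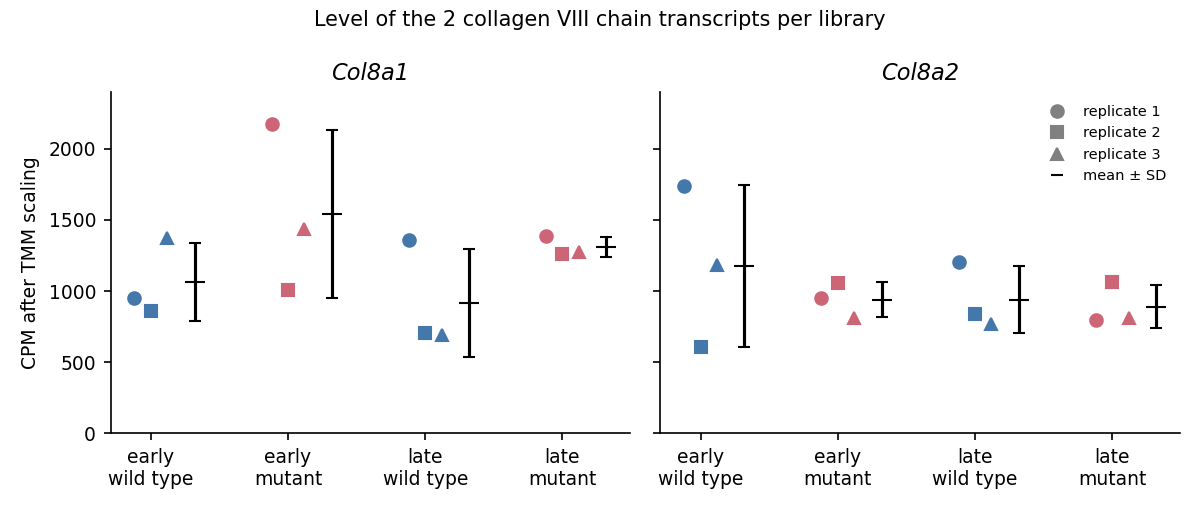
CPM after TMM scaling (vertical axis, from 0) of Col8a1 (left) and Col8a2 (right) in each library of the 4 groups; the marker shape gives the replicate number, and the bar beside each group is the mean ± SD of 3 libraries. For Col8a1, late wild-type replicate 1, at 1357 CPM, lies among the late mutants (1262 to 1390), and for Col8a2 the early wild-type libraries reach from 605 to 1740.

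The genotype effect on each chain was tested in 1 fit of all genes and all 12 libraries. Neither chain passed the threshold of an adjusted p of 0.05 at either stage (edgeR's quasi-likelihood F test, Benjamini-Hochberg adjustment over 17965 genes), in comparisons that called 0.59% of all genes early (100 higher in mutants, 0.557%, and 6 lower, 0.0334%) and 5.47% late (497 higher, 2.77%, and 486 lower, 2.71%). limma-voom gave another split of the late calls, 582 higher and 1143 lower. Col8a1 was 1.45-fold higher in early mutants, at 1539 ± 591 against 1061 ± 275 CPM, a log2 fold change of 0.54 ± 0.32 (SE; 95% interval -0.13 to 1.20, unadjusted p = 0.106, adjusted p = 0.61). In late mutants it was 1.43-fold higher, at 1308 ± 71.7 against 917 ± 382 CPM, a log2 fold change of 0.51 ± 0.32 (-0.15 to 1.17, unadjusted p = 0.122, adjusted p = 0.29). Both intervals include no change and reach beyond a doubling. In tissue RNA a smaller share of a cell type and less RNA per cell cannot be told apart.

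Averaged over the stages, the Col8a1 log2 fold change was 0.52 ± 0.22 (95% interval 0.06 to 0.99), a 1.44-fold higher level with an interval of 1.04- to 1.99-fold. Its unadjusted p was 0.030 and its adjusted p 0.16 in edgeR, in a comparison that called 6.85% of all genes. The call rested on 1 control library and on the tool. Without late wild-type replicate 1 the late log2 fold change was 1.04 (adjusted p = 0.029) and the average 0.81 (adjusted p = 0.014), both past the threshold. limma-voom also called the average (0.65, adjusted p = 0.038), and over the alternatives run the adjusted p of the average ranged from 0.014 to 0.42. The effect was positive under every alternative run, early, late and on average. The early value fell to 0.21 without early mutant replicate 1 and was 0.80 without early mutant replicate 2. The late effect minus the early one was -0.02 ± 0.45 (95% interval -0.96 to 0.91, adjusted p = 0.99 in edgeR, with 0.00557% of all genes called), an interval that still allows nearly a doubling either way.

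Col8a2 in mutants was 0.798 times the wild-type level early, a log2 fold change of -0.32 ± 0.32 (95% interval -0.99 to 0.34, adjusted p = 0.71 in edgeR). Late it was 0.948 times the wild-type level, a log2 fold change of -0.08 ± 0.32 (-0.74 to 0.58, adjusted p = 0.90). The average was -0.20 ± 0.22 (-0.67 to 0.27, adjusted p = 0.62), and the difference between stages was 0.25 ± 0.45 (-0.69 to 1.18, adjusted p = 0.88). The direction of the early value rested on early wild-type replicate 1, the library of highest Col8a2 level, since without it the log2 fold change was 0.09 (adjusted p = 0.91) and the average was 0.01. The late value turned to 0.28 without late wild-type replicate 1 (adjusted p = 0.55), to 0.06 without late mutant replicate 3, to 0.00 without late mutant replicate 1 and to 0.02 in limma-voom. The intervals are wide, so a lower level of Col8a2 in mutants is neither shown nor outside them, and the same holds for a higher one.

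In the authors' deposited table the 4 values pointed the same way: Col8a1 had log2 fold changes of 0.49 early (q = 0.49) and 0.46 late (q = 0.377), and Col8a2 had -0.37 early (q = 0.621) and -0.15 late (q = 0.788). Those values come from the same libraries.

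**Figure D2:**
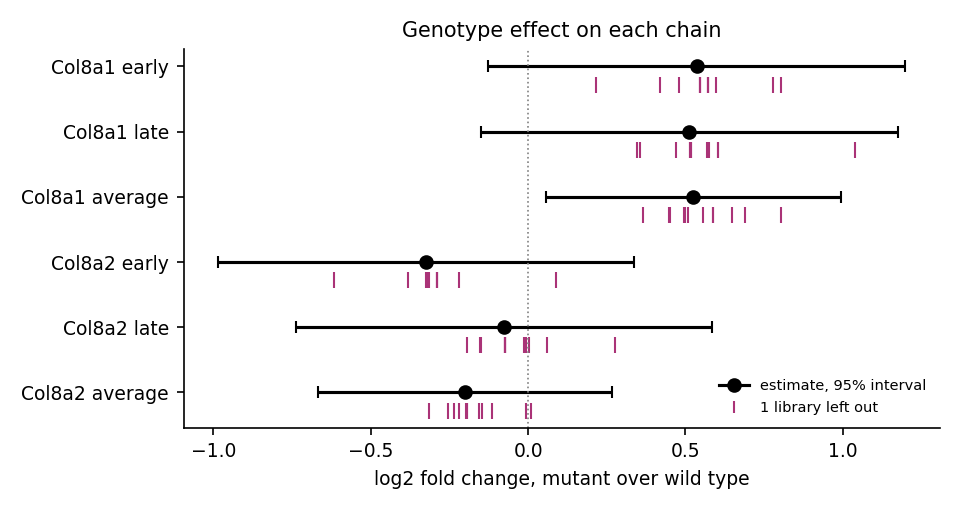
log2 fold change of mutant over wild type (horizontal axis) for each chain early, late and averaged over both stages; points with bars are the edgeR estimates with 95% intervals, and the ticks under each are the estimates with 1 library left out. Only the Col8a1 average has an interval clear of 0 (0.06 to 0.99, before adjustment over all genes), and the isolated ticks at 1.04 (Col8a1 late) and 0.09 (Col8a2 early) are the fits without late wild-type replicate 1 and without early wild-type replicate 1.

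The stage comparisons gave no call for either chain. Between late and early wild type the log2 difference was -0.21 ± 0.32 for Col8a1 and -0.33 ± 0.32 for Col8a2 (adjusted p = 1.0 for both in edgeR). Between late and early mutants it was -0.23 ± 0.32 for Col8a1 (adjusted p = 0.94) and -0.08 ± 0.32 for Col8a2 (adjusted p = 0.99). edgeR called 0 genes in both stage comparisons (0%), where 724 and 1174 genes had an unadjusted p below 0.05 and DESeq2 called 1 and 13. Stage and batch cannot be told apart here.

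The ratio of the chains within a library does not depend on how libraries are scaled. As Col8a1 reads per Col8a2 read it was 0.546, 1.42 and 1.16 in early wild type and 2.29, 0.954 and 1.77 in early mutants. The early groups overlapped, with mutant replicate 2 below 2 of the wild-type libraries. It was 1.12, 0.844 and 0.892 in late wild type and 1.75, 1.19 and 1.56 in late mutants, and these groups did not overlap. The level of 25.9% of all tested genes also separated the genotypes late. Corrected for length through FPKM, the ratio was 0.479, 1.25 and 1.02 in early wild type, 2.01, 0.837 and 1.55 in early mutants, 0.986, 0.740 and 0.783 in late wild type, and 1.54, 1.04 and 1.37 in late mutants. The late wild-type libraries all lay below 1 on this scale and the late mutants all above it.

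As a share of the reads of both chains, Col8a1 made up 49.3% ± 12.3 in early wild type, 60.8% ± 10.7 in early mutants, 48.6% ± 3.80 in late wild type and 59.7% ± 4.83 in late mutants (SD, n = 3). Counting error is far smaller: in early mutant replicate 1 the share was 69.6% with a 95% Wilson interval of 69.4 to 69.9%, which covers counting error only, as reads after amplification are not independent molecules. On the log2 scale the mutant ratio exceeded the wild-type ratio by 0.70 ± 0.42 early (SE from the spread pooled over the groups), which is 1.62-fold, with a two-sided exact permutation p of 0.3. The late difference was 0.65 ± 0.42, 1.57-fold, with an exact permutation p of 0.1, the smallest that 3 against 3 libraries can give. The SD of the log2 ratio was 0.73 in early wild type and 0.65 in early mutants, but 0.22 and 0.29 in the late groups. The pooled SE therefore averages over unequal spreads. With labels permuted within stages, the mean difference was 0.67 ± 0.30, 1.60-fold, with an exact permutation p of 0.04 where 0.005 is the smallest possible. Adjusted over the 4 ratio comparisons, the p values were 0.4 early, 0.2 late and 0.16 for both stages, so none passed. The stages did not differ detectably in this effect (late minus early -0.05 ± 0.60, exact permutation p = 0.96). In 5 of 6 mutants the ratio was above the wild-type mean of its stage, and the exception was early mutant replicate 2.

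Which libraries entered mattered for the ratio. Leaving out each library in turn gave a mean difference over both stages of 0.47 to 0.85 with exact permutation p values of 0.015 to 0.11, and the lowest value was without early wild-type replicate 1. The early difference alone was 0.29 without that library, 0.43 without early mutant replicate 1 and 1.06 without early mutant replicate 2. The late difference stayed within 0.53 to 0.81, and without late wild-type replicate 1 it was 0.77.

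**Figure D3:**
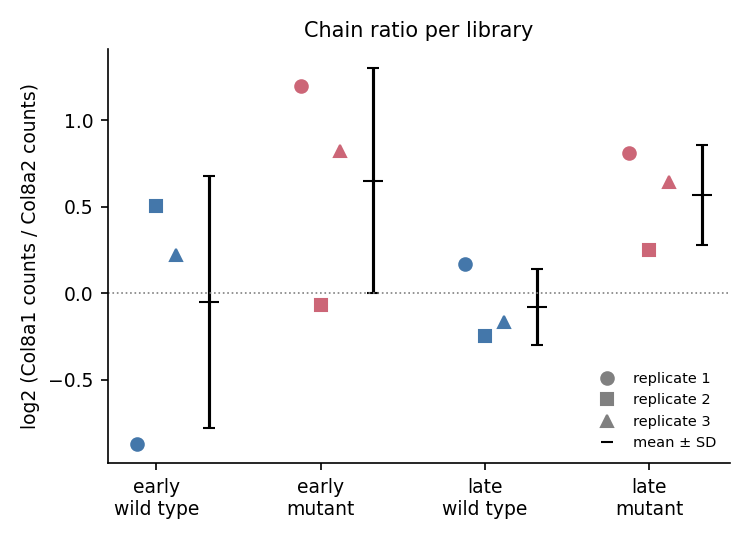
log2 of Col8a1 counts over Col8a2 counts in each library (vertical axis; 0 is an equal number of reads); the marker shape gives the replicate number, and bars are the group mean ± SD of 3 libraries. Late mutants (0.25 to 0.81) all lie above late wild type (-0.24 to 0.17), and the early groups overlap because wild-type replicates 2 and 3 (0.51 and 0.22) lie above mutant replicate 2 (-0.07).

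No correlation between the chain transcripts across libraries passed its test. Pearson's r of their log2 CPM was 0.17 over the 12 libraries (permutation p = 0.59) and Spearman's rho 0.16 (permutation p = 0.62). Within the 6 early libraries r was -0.03 (exact permutation p = 0.96) and rho -0.03 (p = 1.0), and within the 6 late libraries r was 0.48 (p = 0.29) and rho 0.26 (p = 0.66). Without the libraries farthest from the Col8a2 median, early wild-type replicates 1 and 2, r was 0.31 (permutation p = 0.38) over the other 10. Of these 4 relations none passed after adjustment (Pearson 0.76 to 0.96, Spearman 1.0). Taken as deviations from the group means, so that genotype and stage do not enter, r was 0.30.

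The 5 genes most correlated with each chain were picked as the highest of 9084. Their high values follow in part from that choice, so they are no test of the chain pair. Among 9084 tested genes of at least 5 CPM, the correlations of log2 CPM with Col8a1 over the 12 libraries, whose points share library and depth, were highest for Rplp2 (r = 0.96), a ribosomal protein gene, Chpf (0.96), which helps to extend chondroitin sulfate chains, Mrpl52 (0.95), a mitochondrial ribosomal protein gene, Pigq (0.95), of the glycolipid anchor pathway, and Galnt10 (0.95), a glycosyltransferase gene that starts O-linked sugars. Their correlations as deviations from group means were 0.93 to 0.95. Col8a2 came at rank 4022 in this order. For Col8a2 the highest were Klhdc10 (0.93), Ankrd40 (0.91), Eef1a1 (0.91), the translation elongation factor gene, Pabpn1 (0.89), a poly(A)-binding protein gene, and Ltbp3 (0.89), a TGF-β binding matrix protein gene, with 0.91 to 0.97 as deviations from group means. Col8a1 came at rank 3073 for Col8a2. Rplp2 and Eef1a1 have near-identical pseudogene copies, so their counts are less certain.

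Collagen VIII was the main collagen of the tissue by transcript level. Of the FPKM summed over all collagen chain genes, the share of Col8a1 and Col8a2 together was 50.6% ± 2.79 in early wild type, 52.7% ± 5.72 in early mutants, 49.6% ± 2.44 in late wild type and 45.9% ± 0.702 in late mutants. The early groups overlapped (47.7 to 53.3% and 47.0 to 58.4%). The late groups did not, with 47.5 to 52.3% in wild type and 45.1 to 46.4% in mutants. This difference was not tested, and 25.9% of all tested genes also separated the genotypes late. Over the same late libraries the FPKM sum of the pair was 384 ± 175 in wild type and 489 ± 83.3 in mutants, and that of all collagens 763 ± 309 and 1067 ± 199. The lower late share therefore stood beside a mean collagen VIII sum that was no lower in mutants. The highest late sum, 586 FPKM, was that of wild-type replicate 1. The other late wild-type libraries were at 280 and 285 and the late mutants at 436 to 585. These sums were not tested.

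The next collagens were the network-forming collagen IV chains of basement membranes and the stromal collagens: Col4a3 (mean 97.4 FPKM), Col1a2 (72.0), Col12a1 (68.2), Col4a4 (61.6), Col4a1 (43.0), Col4a2 (38.0), Col4a6 (13.5), Col6a3 (12.6), Col1a1 (12.3) and Col4a5 (9.33). None of these 10 passed the threshold at either stage in edgeR with all libraries; their smallest adjusted p was 0.063 late, for Col4a3 and Col1a1. Col4a3, a chain of mature basement membranes including Descemet membrane, was the nearest to collagen VIII in level and was the one whose values by stage differed most: it was at 540 ± 74.2 CPM in early mutants against 862 ± 362 in wild type, and at 1452 ± 333 in late mutants against 583 ± 436. Its late effect exceeded its early one by 1.99 ± 0.58 on the log2 scale, which did not pass either (adjusted p = 0.18). Both Col4a3 values rested on late wild-type replicate 1, which was at 1073 CPM where the other late wild-type libraries were at 435 and 240. Without it Col4a3 was the 1 gene of the 10 past the threshold late, with a log2 fold change of 2.24 ± 0.35 against 1.32 ± 0.41 with it (adjusted p = 0.0023 in edgeR), and its late effect exceeded its early one by 2.87 ± 0.45 (adjusted p = 0.014). That fit of Col4a3 was chosen after seeing the data.

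**Figure D4:**
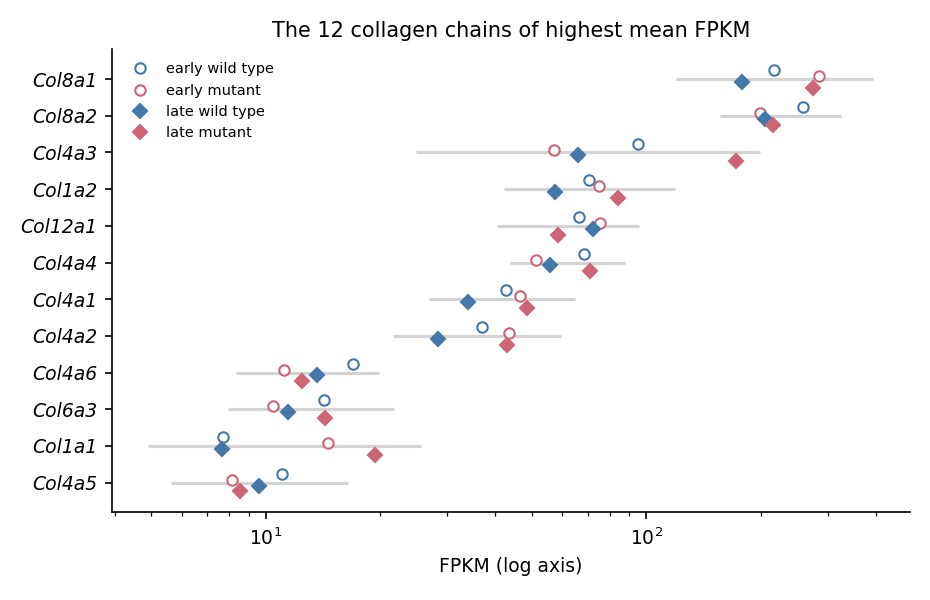
Group mean FPKM (horizontal log axis) of the 12 collagen chains of highest mean, with open circles for early and filled diamonds for late groups, wild type in blue and mutant in red; the grey line spans the lowest and highest of the 12 libraries. The collagen VIII chains lie at the top (means 238 and 219.6 FPKM), and Col4a3 follows at 97.4 with the widest span, 24.9 to 199.

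Of the other 42 collagen chains, 37 were tested. Early, 2 were higher in mutants and 0 lower: Col23a1, a transmembrane collagen, rose 3.23-fold (adjusted p = 0.0021) and Col5a1, a fibril-regulating chain, 2.27-fold (adjusted p = 0.037), in a comparison that called 0.557% of all genes as higher. Late, 3 were higher and 0 lower, where 2.77% of all genes were called higher: Col23a1 rose 2.83-fold, Col5a1 1.97-fold and Col18a1, a basement membrane collagen near the detection limit (4.65 ± 2.93 against 0.595 ± 0.415 CPM), 7.83-fold (adjusted p = 0.040). The median log2 fold change of the 37 chains was -0.37 early and 0.35 late, against -0.11 and 0.00 over all genes. Col8a1, at 0.54 and 0.51, lay above the median of the other chains at both stages, and Col8a2, at -0.32 and -0.08, lay near it early and below it late. The count was 1 to 3 early and 1 to 5 late when single libraries were left out. Late it was 5 without late wild-type replicate 1 (4 higher and 1 lower) and 5 without early wild-type replicate 1 (all higher). It was 1 late without early mutant replicate 1, late mutant replicates 2 or 3 or late wild-type replicate 2. Early it was 1 without any of the 6 early libraries or without late mutant replicate 3.

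The proteins that lie beside collagen VIII in Descemet membrane and related basement membranes were read from a list of 46 genes, all tested. Early, 2 were higher and 0 lower: Smoc2, a calcium-binding matrix protein gene, rose 5.22-fold and Prelp, a small leucine-rich proteoglycan gene, 3.62-fold, where 0.557% of all genes were called higher. Late, 9 were higher and 0 lower, among them Smoc2 (4.17-fold), the collagen crosslinking enzyme gene Lox (3.27-fold), the laminin chain gene Lamb1 (2.98-fold) and the collagen-binding Sparc (2.16-fold, 5711 ± 954 against 2643 ± 289 CPM), where 2.77% of all genes were called higher. The median log2 fold change was 0.23 early and 0.83 late, against -0.11 and 0.00 over all genes. The late count was 19 without late wild-type replicate 1, and 3 without late wild-type replicate 2, 4 without late mutant replicates 1 or 3 and 5 without late wild-type replicate 3. The early count was 1 without early mutant replicate 1 or early wild-type replicates 1 or 3, and 4 without late mutant replicate 1.

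Chain maturation in the endoplasmic reticulum was read from 34 listed genes of prolyl and lysyl hydroxylation, chaperones and export, of which 33 were tested. Early, only Hspa5 passed among them, the gene of the chaperone BiP, 2.21-fold higher in mutants (549 ± 33.1 against 248 ± 24.7 CPM, adjusted p = 0.026), where 0.557% of all genes were called higher. Late, 4 were higher and 0 lower: Calr, the gene of the chaperone calreticulin (2.72-fold), Hspa5 (2.29-fold), the peptidyl-prolyl isomerase gene Fkbp14 (2.55-fold) and the disulfide isomerase gene Pdia4 (2.45-fold), where 2.77% of all genes were called higher. The collagen chaperone gene Serpinh1 was at 43.6 ± 8.45 against 38.5 ± 9.58 CPM early and 38.9 ± 4.42 against 30.0 ± 6.95 late (adjusted p = 0.81 and 0.38). The median of the 33 was 0.42 early and 0.70 late, against -0.11 and 0.00 over all genes, so the Col8a1 effect lay near the median of this list at both stages while that of Col8a2 lay below it. The late count was 18 without late wild-type replicate 1 (17 higher and 1 lower) and 2 without late mutant replicate 1 or late wild-type replicate 3. The early count was 0 without any of the 6 early libraries and 2 without late wild-type replicate 1.

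Of 12 listed collagen receptors 10 were tested. Early, 0 passed in edgeR and in DESeq2 (0.59% of all genes were called in edgeR), though Itgb1 (unadjusted p = 0.0059, adjusted p = 0.30) and Itga1 (unadjusted p = 0.0099, adjusted p = 0.38) had unadjusted values below 0.05. Late, Itgb1, the β1 integrin gene, rose 2.17-fold (222 ± 41.9 against 103 ± 16.3 CPM, adjusted p = 0.017), and no other passed, where 2.77% of all genes were called higher. The median log2 fold change was 0.35 early and 0.68 late, against -0.11 and 0.00 over all genes. The late count was 0 without late mutant replicate 1 and 3 without late wild-type replicate 1.

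Marker sums differed between the genotypes in several lists, given here beside the chain values on the CPM scale of library totals. The 17 counted endothelial markers other than the collagen VIII chains summed to 65061 to 94076 CPM in early wild type, 56879 to 65066 in early mutants, 77842 to 89058 in late wild type and 48786 to 73426 in late mutants, a sum in which the carbonic anhydrase gene Car3 weighs most (37513 to 84574). The sum of the 18 keratocyte markers, mostly Dcn, overlapped early (22911 to 29211 in wild type, 24391 to 25629 in mutants) and was higher in all late mutants (27883 to 34986 against 20716 to 26511). Of these 18 markers, 13 had a higher mean in early mutants and 15 in late mutants. The cornea-enriched proteoglycan genes Kera and Lum had means of 67.9 and 231 CPM in early mutants against 13.1 and 50.8 in early wild type. Cd34 and Angptl7 had 67.0 and 591 against 19.9 and 173. Other keratocyte markers had lower means in early mutants: Dcn (18435 against 20568), Ogn (434 against 633), Col6a3 (113 against 154), Col3a1 (9.31 against 14.3) and Pdgfra (1.11 against 1.52). The sum of the 10 trabecular meshwork markers was higher in all mutants. It was 1483 to 2062 against 944 to 1416 early and 2253 to 2779 against 882 to 1209 late. At each stage 9 of these 10 markers had a higher mean in mutants. Pdpn was lower early (514 against 570 CPM) and Cygb late (4.75 against 5.46). Angptl7 is in both this list and the keratocyte list. The sum of the 12 smooth muscle and pericyte markers was lower in early mutants (225 to 249 against 296 to 391). It was higher in late mutants (318 to 367 against 231 to 254). Acta2 weighed most in this sum, with mutant means of 160 against 246 CPM early and 252 against 143 late. Of these 12 markers, only 3 had a higher mean in early mutants and 5 in late mutants. The 20 photoreceptor markers summed to more in all early mutants (246 to 490 against 114 to 196) and overlapped late (158 to 497 against 209 to 233). Of these 20 markers, 19 had a higher mean in early mutants and 18 in late mutants. Nr2e3 was lower at both stages (44.4 against 93.5 CPM early and 40.9 against 102.8 late), and Opn1mw was lower late. The 12 markers of pigmented iris and melanocytes likewise summed to more in all early mutants (117 to 283 against 46.0 to 70.7) and overlapped late (133.7 to 202 against 32.9 to 134.3). Of these 12 markers, 9 had a higher mean in early mutants and 8 in late mutants. Oca2, Mitf and Rab27a were lower at both stages, and Mlana was lower late. The sums of the lens, corneal epithelium and vascular endothelium lists overlapped at both stages, though their markers did not all move with the sums. Of the 18 lens markers, 0 had a higher mean in early mutants and 13 in late mutants. Cryab weighed most there (2041 against 2659 CPM early and 2127 against 3100 late). Of the 12 vascular markers, 5 had a higher mean in early mutants and 11 in late mutants. Egfl7 weighed most there (74.0 against 51.3 early and 50.7 against 74.8 late). For the 12 epithelial markers these counts were 8 and 6. No marker of the endothelial, keratocyte and trabecular lists was at 0 in any library. Collagen VIII chains are also made by other cells of the eye, and the part of these cells in the Col8a1 level or in the chain ratio was not tested.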

How the data were processed

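Corneal endothelium RNA of 12 libraries in 4 groups was extracted with TRIzol and made into strand-specific paired-end libraries, per the labels' protocols. Per the submitters' processing notes, GRCm39 was the build and the tools included HISAT2, HTSeq, fastp and DESeq2, without versions. Not given in the sources used here are the annotation, the strand setting and whether batches were adjusted. The deposited files hold read counts for each gene, FPKM values, and the authors' comparison tables with, per the file headers, a mean normalized signal for each group, a fold change (ratio), its log2 value, a p-value and a q-value. The FPKM values imply gene lengths of 5110 bases for Col8a1 and 4483 for Col8a2.

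Counts were tested with edgeR 4.0.16 in R 4.3.3 (TMM, filterByExpr on the 4 groups, robust quasi-likelihood F test, 1 fit with 8 residual degrees of freedom, threshold 0.05). The filter removed 14796 of 32761 genes. Biological variation had a common coefficient of 0.464. Log2 CPM used a prior count of 2. The chain ratio and correlations were tested by permutation (SciPy 1.17.1; 100000 resamples for 12 libraries and for 10, exact otherwise). Coding sequences were aligned by codon with Biopython 1.88. On data simulated for 17965 genes, the early comparison found 18 of 100 genes with a 2-fold change, 91 of 100 with a 4-fold change and 3 false calls, and the late comparison 17, 93 and 4. A 2-fold change is therefore often missed.

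The members, gene lists and marker lists were chosen with earlier results of these data known. Genes named are the chains, the 5 most correlated with each, the 10 other collagens of highest mean FPKM, and up to 4 members of each list with the smallest p past the threshold, otherwise the 2 with the smallest p. Serpinh1 and the markers were named after their values were seen. A marker gene and a stretch of coding sequence are not reported here. Replicates are called biological by the labels, and p-values measure the spread between libraries. Alternatives were DESeq2 1.42.0 (size factors and Wald test), limma-voom 3.58.1 with sample weights, no filter, a filter of 5 CPM in 3 libraries, only the compared libraries, a replicate block, FPKM or shares for the ratio, other log2 CPM settings, and leaving out each library in turn. Leaving out replicate 2 of early wild type with replicate 1 of late wild type was another, chosen for the ratio after seeing the data.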

Additional observations from a re-analysis of the deposited data

How the results depend on the processing

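Col8a1 stayed higher in mutants early, late and on average under all alternatives run, and Col8a2 was called under none. Same-numbered replicates of the genotypes did not deviate together (correlations from -0.09 to 0.08, and not every library correlated best with its own number), and no pairing was assumed. With a replicate block, the chain ratio over both stages kept its difference of 0.67 with a sign-flip p of 0.094, the Col8a1 interaction was 0.10, and the early counts were 1 for membrane partners, 0 for maturation and 1 for other collagens. With no low-count filter, 361 genes were called early and 1507 late, with 5 partners early, 2 maturation genes early and 7 late, 2 receptors late and 7 other collagens late. With 5 CPM in 3 libraries, 1 partner was called early and 7 maturation genes late, the Col8a1 interaction was 0.13 and the Col8a2 stage effect in mutants 0.030. DESeq2's Wald test called 237 genes early and 2478 late, 4 and 15 partners, 2 and 12 maturation genes, 2 receptors late and 8 other collagens late. limma-voom called 1725 genes late, 4 maturation genes early and 9 late, and 1 receptor early, with Col8a2 late at 0.017, the Col8a1 average at 0.65 and the Col8a1 interaction at 0.21. With only the compared libraries, 489 genes and 0 receptors were called late. With replicate 2 of early wild type and replicate 1 of late wild type both left out, 4371 genes were called late, with 20 partners, 23 maturation genes, 3 receptors and 6 other collagens, and 1 other collagen early; the Col8a1 effect was 1.03 late and 0.72 on average, the Col8a1 interaction 0.61 and Col8a2 late 0.27. Counts in this section join higher and lower calls. The cause of these shifts was not tested.

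Leaving out single libraries gave for Col8a1 0.21 to 0.80 early, 0.35 to 1.04 late, 0.37 to 0.81 on average, -0.26 to 0.47 for the interaction, -0.70 to 0.021 for stage in wild type and -0.47 to 0.091 in mutants. For Col8a2 it gave -0.62 to 0.088 early, -0.19 to 0.28 late, -0.31 to 0.0077 on average, -0.16 to 0.60 for the interaction, -0.68 to 0.075 for stage in wild type and -0.22 to 0.013 in mutants. The chain ratio ranged from 0.29 to 1.06 early, 0.53 to 0.81 late, 0.47 to 0.85 over both stages and -0.41 to 0.36 for the interaction. Called genes numbered 51 to 179 early and 229 to 3909 late, partners 1 to 4 and 3 to 19, maturation genes 0 to 2 and 2 to 18, receptors 0 and 0 to 3, and other collagens 1 to 3 and 1 to 5. At these depths counting error of both chains is small, and the number of libraries limits the precision.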
